A study of Homo sapiens with 12 samples.

Results

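Genes that build ribosomes or transcribe ribosomal RNA were followed in HPB-ALL and KOPT-K1, human T-cell acute lymphoblastic leukaemia lines. The 60 genes were taken from a list by symbol, and 59 of them were measured, out of 19775 genes in all. That list was compiled with earlier results of these arrays known, so its contrast with all genes is a description. DDX18, a helicase of large-subunit assembly, had no probe set that named it alone. The 59 measured genes comprise 12 of RNA polymerases I and III, 16 of the small subunit, 17 of the large subunit, 6 of the box C/D and box H/ACA particles, and 8 other nucleolar genes. The last group is mixed: PPRC1 is a transcriptional co-activator and PUS7 a pseudouridine synthase with known targets outside ribosomal RNA.

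The arrays cover 4 groups of 3 cultures, with 1 array per culture: HPB-ALL with SAHM1, HPB-ALL with DMSO, KOPT-K1 with SAHM1 and KOPT-K1 with DMSO. SAHM1, a hydrocarbon-stapled helical peptide designed from mastermind-like to block the NOTCH transcription complex, was given at 20 µM for 24 hours, and DMSO is its vehicle. All cultures were grown in RPMI medium with serum, and each line stands for 1 leukaemia. Each deposited value is a ratio, with the average of the 3 DMSO arrays of that line set to 1. Absolute levels are therefore lost, so the T-cell label could not be checked against marker levels and the lines could not be compared in DMSO.

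Ribosomes are assembled in the nucleolus. RNA polymerase I makes the long precursor of most ribosomal RNA and RNA polymerase III makes the short 5S RNA and transfer RNA. The precursor is modified under the guidance of box C/D and box H/ACA particles, folded and cut, and its parts mature separately into the small and the large subunit. The transcription factor MYC, a NOTCH target in T-cell leukaemia, is known to bind the sequence CACGTG near many of these genes and to activate them.

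Most of the 59 listed genes that were measured, called members here, fell with SAHM1 in each line. Of 101 other measured genes of the same steps, described further on, 24 fell in HPB-ALL and 44 in KOPT-K1. In HPB-ALL 37 of the 59 members fell and 0 rose at an adjusted p under 0.05 in limma, while 4.38% of all 19775 genes fell and 4.96% rose there (9.34% in either direction). In KOPT-K1 32 members fell and 1, POLR3K, rose, while 13.2% of all genes fell and 5.85% rose (19% in either direction). The median log2 difference (SAHM1 minus DMSO) of the members was -0.29 in HPB-ALL and -0.26 in KOPT-K1, beside -0.02 and 1.99e-05 for all genes. Differences between members were wide, from -0.71 to 0.01 in HPB-ALL and from -0.79 to 0.31 in KOPT-K1. Averaged over both lines, 45 members fell and 0 rose, against 8.13% and 3.16% of all genes. In bulk RNA a lower value in every cell and a low value in some of the cells cannot be told apart. After quantile normalization 16 members were called in HPB-ALL, 3 in KOPT-K1 and 14 for the mean, beside 2.11%, 0.688% and 1.49% of all genes, and the members' median was -0.29 in HPB-ALL and -0.16 in KOPT-K1. In HPB-ALL 21 members were called without HPB-ALL DMSO replicate 3, beside 5.04% of all genes. Without _x_at and _s_at probe sets, which other transcripts can share, 21 of 50 members were called there, beside 5.96% of all genes.

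The falls were small in size but separated the arrays. All 3 SAHM1 arrays lay below all 3 DMSO arrays for 47 members in HPB-ALL and for 41 in KOPT-K1, where 15.7% and 21.6% of all genes did so. In all, 21 members fell in both lines, beside 1.28% of all genes. A further 16 were called lower in HPB-ALL alone, and 11 in KOPT-K1 alone. The test was passed in neither line by 10 members: POLR1B, UBTF, FBL, NIP7, WDR12, WDR74, LYAR, NCL, NPM3 and DDX10. NCL is nucleolin, one of the most abundant nucleolar proteins, and its differences were -0.07 ± 0.07 in HPB-ALL and 0.06 ± 0.07 in KOPT-K1 (± is the standard error from limma throughout).

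**Figure D1:**
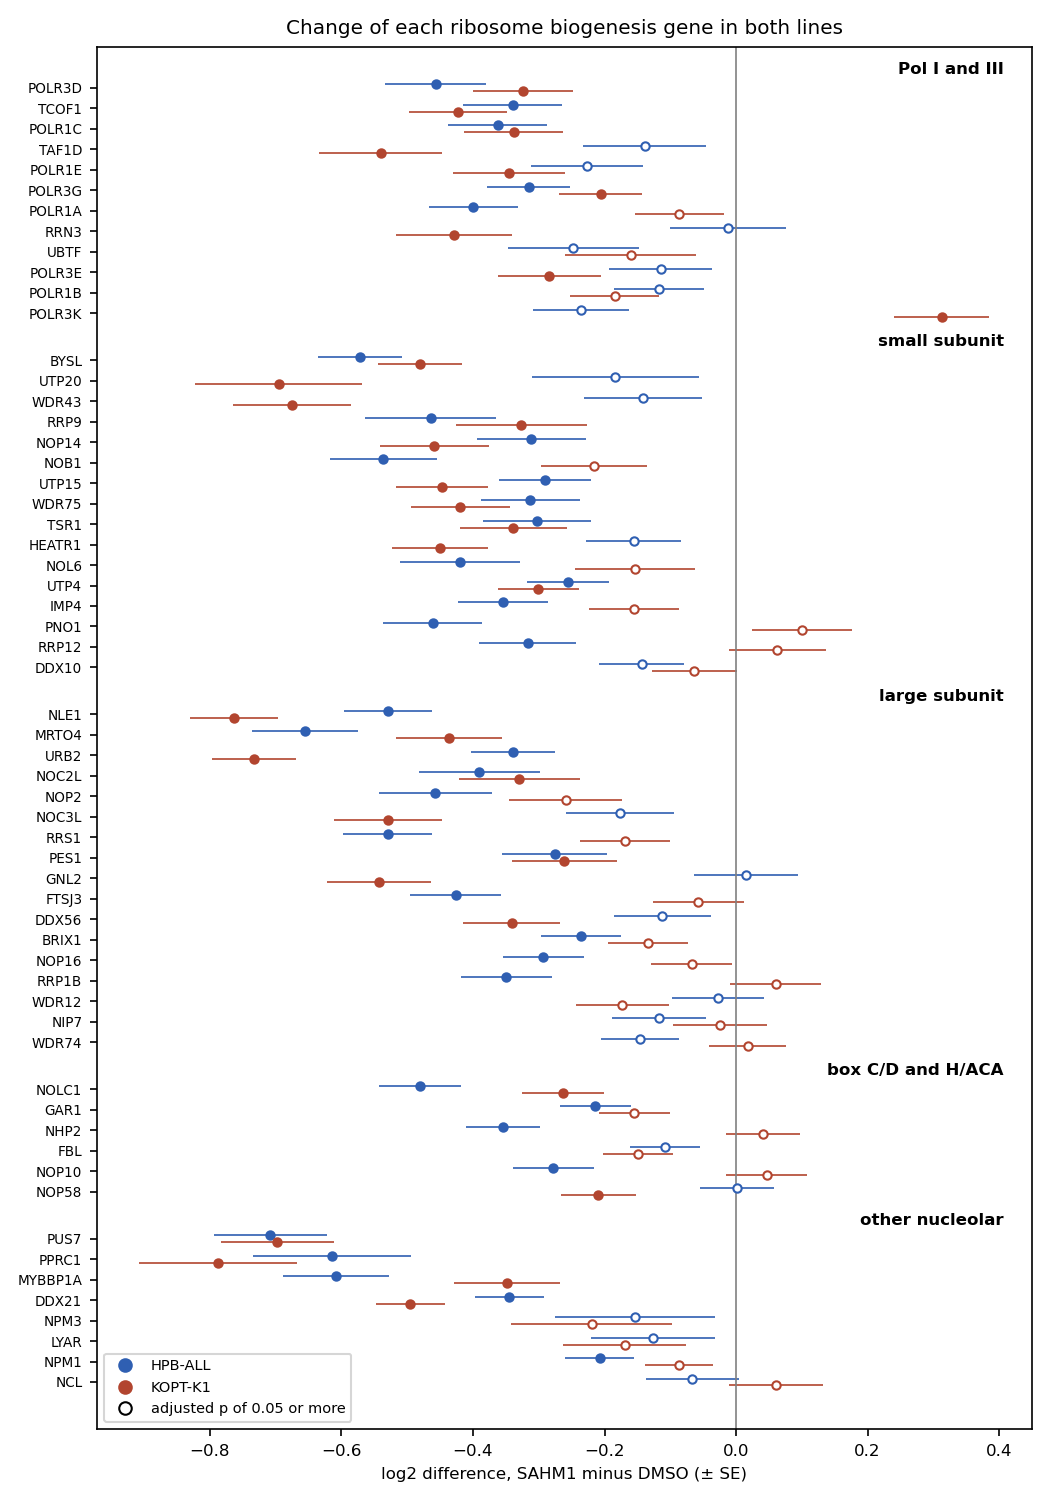
Log2 difference (SAHM1 minus DMSO) of each of the 59 members, grouped by step, with points for HPB-ALL and KOPT-K1 and bars for the standard error (n = 3 arrays per group). Most points lie left of 0 in both lines, with POLR3K in KOPT-K1 at 0.31 as the rise that passed the test.

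Control probe sets on the arrays are given here as measured, and some of them separated the SAHM1 arrays from the DMSO arrays. The mean of the 3 probe sets of 18S ribosomal RNA differed between SAHM1 and DMSO by 2.19 in HPB-ALL and by -0.26 in KOPT-K1. In KOPT-K1 18S ranged from -0.39 to -0.14 with SAHM1 and from -0.17 to 0.13 with DMSO, which overlap. In HPB-ALL 18S ranged from -1.65 to 1.05 in DMSO arrays and from 1.35 to 1.89 in SAHM1 arrays. Every SAHM1 array lay above every DMSO array there, so 18S and treatment cannot be told apart in that line. With 18S as a covariate 0 members were called in HPB-ALL by limma, as were 0.263% of all genes; 30 members had an unadjusted p under 0.05, and their median difference was -0.28. The median standard error of a member there was 0.12, against 0.07 without the covariate. The 18 hybridization spike probe sets differed by -0.39 in HPB-ALL and by 0.83 in KOPT-K1. In HPB-ALL their mean ranged from -0.71 to -0.31 with SAHM1 and from -0.48 to 0.60 with DMSO, which overlap. In KOPT-K1 the spike mean ranged from 0.60 to 1.05 with SAHM1 and from -0.02 to 0.01 with DMSO. These do not overlap, so spike level and treatment cannot be told apart in that line. With both controls as covariates 9 members were called in KOPT-K1, beside 3.02% of all genes, at a median difference of -0.22. For ACTB, a gene probed at both ends, the 5′ minus 3′ log2 value ran from -0.41 to -0.09 in SAHM1 arrays of HPB-ALL, against -0.03 to 0.05 in its DMSO arrays. In KOPT-K1 it ran from -0.22 to -0.09 with SAHM1, against -0.01 to 0.01 with DMSO. It was thus lower in every SAHM1 array, by -0.24 on average in HPB-ALL and -0.17 in KOPT-K1, while that of GAPDH differed by -0.01 and 0.01. The part of ACTB in the falls was not tested, nor was that of the other controls beyond these fits.

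The sequence that MYC binds was looked for in the promoters, since MYC itself fell in both lines (adjusted p = 2.18e-04 in HPB-ALL and 6.16e-05 in KOPT-K1, limma). MYC stood at 0.691, 0.61 and 0.614 of the DMSO mean in SAHM1 arrays of HPB-ALL, against 0.949, 1.08 and 0.966 in its DMSO arrays. In KOPT-K1 MYC stood at 0.621, 0.597 and 0.638 with SAHM1, against 1.01, 0.989 and 0.997 with DMSO. Promoter windows of 300 bases, from 250 before to 50 after the start, were supplied from RefSeq (GRCh38.p14) for 49 of the 59 members. CACGTG, called an E-box, which reads the same on both strands, occurred in 20 of these 49 windows (40.8%). It occurred in 2030 of all 27305 windows supplied (7.43%), and in 8.9% of the windows of the genes measured.

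Windows of 5 members that fell in both lines are shown. NLE1, BYSL and PUS7 had the smallest p of their steps for the mean of both lines, MRTO4 is another large-subunit gene, and DDX21 is shown as a window with no match. They are written 5′ to 3′ on the strand of the gene, with CACGTG in capitals. NLE1 lies on the minus strand at chr17:35142254-35142553. BYSL lies on the plus strand at chr6:41921249-41921548. PUS7 lies on the minus strand at chr7:105522222-105522521. MRTO4 lies on the plus strand at chr1:19251555-19251854. DDX21 lies on the plus strand at chr10:68955920-68956219.
NLE1: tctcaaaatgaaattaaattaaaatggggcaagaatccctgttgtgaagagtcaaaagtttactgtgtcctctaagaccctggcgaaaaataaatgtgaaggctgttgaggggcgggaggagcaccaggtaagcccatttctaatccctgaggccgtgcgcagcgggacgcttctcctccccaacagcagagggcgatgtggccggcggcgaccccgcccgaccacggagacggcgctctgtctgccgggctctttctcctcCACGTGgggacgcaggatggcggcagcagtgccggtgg
BYSL: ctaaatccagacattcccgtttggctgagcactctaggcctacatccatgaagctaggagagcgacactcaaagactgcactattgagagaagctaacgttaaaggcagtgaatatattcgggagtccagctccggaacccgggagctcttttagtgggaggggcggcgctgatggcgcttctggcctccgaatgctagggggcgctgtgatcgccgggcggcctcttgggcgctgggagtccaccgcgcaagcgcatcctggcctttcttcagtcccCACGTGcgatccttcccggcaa
PUS7: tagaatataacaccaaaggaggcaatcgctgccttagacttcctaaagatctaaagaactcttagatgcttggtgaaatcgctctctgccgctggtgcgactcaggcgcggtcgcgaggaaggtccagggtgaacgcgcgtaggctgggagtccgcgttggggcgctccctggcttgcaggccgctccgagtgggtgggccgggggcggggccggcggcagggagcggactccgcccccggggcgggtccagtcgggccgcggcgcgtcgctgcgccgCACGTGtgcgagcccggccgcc
MRTO4: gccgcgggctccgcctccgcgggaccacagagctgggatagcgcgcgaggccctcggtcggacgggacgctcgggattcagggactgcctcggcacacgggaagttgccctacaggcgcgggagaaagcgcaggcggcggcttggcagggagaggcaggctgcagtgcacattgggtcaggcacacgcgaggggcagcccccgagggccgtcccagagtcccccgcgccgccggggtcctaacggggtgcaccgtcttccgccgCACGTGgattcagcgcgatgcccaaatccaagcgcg
DDX21: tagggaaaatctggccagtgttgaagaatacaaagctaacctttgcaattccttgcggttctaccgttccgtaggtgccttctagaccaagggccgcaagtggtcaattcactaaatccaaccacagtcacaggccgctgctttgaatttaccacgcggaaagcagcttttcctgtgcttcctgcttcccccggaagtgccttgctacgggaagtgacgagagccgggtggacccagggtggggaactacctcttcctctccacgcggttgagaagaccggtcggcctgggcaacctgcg

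In NLE1, BYSL, PUS7 and MRTO4 the match lies after the annotated start. Over all members 15 of 22 matches began at or after the start, 5 within 20 bases before it, and 2 further upstream. The match was found in 9 of 16 windows of members that fell in both lines (56.2%), in 10 of 22 of those that fell in 1 line (45.5%), and in 1 of 11 of those that fell in neither (9.09%). By step it was found in 9 of 15 small-subunit windows, 6 of 14 large-subunit windows, 2 of 4 windows of the box C/D and H/ACA genes, 2 of 8 other nucleolar windows and 1 of 8 polymerase windows. These members differ in base composition from promoters in general, with a median GC content of 63.7%, beside 58.3% over all windows. Within the members' GC quartiles 9 of 26 member windows held the match, beside 9.61% of all 7978 windows there. A match is a run of letters and does not show that MYC was bound there. Whether the fall of MYC had a part in the falls of the members was not tested.

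The median log2 difference of the 20 members with a match was -0.33 in HPB-ALL and -0.34 in KOPT-K1. For the 29 members with a window and no match it was -0.24 in HPB-ALL and -0.17 in KOPT-K1. The ranges overlap, as DDX21 shows: its window holds no match and it fell in both lines, whereas FBL has a match and passed the test in neither.

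**Figure D2:**
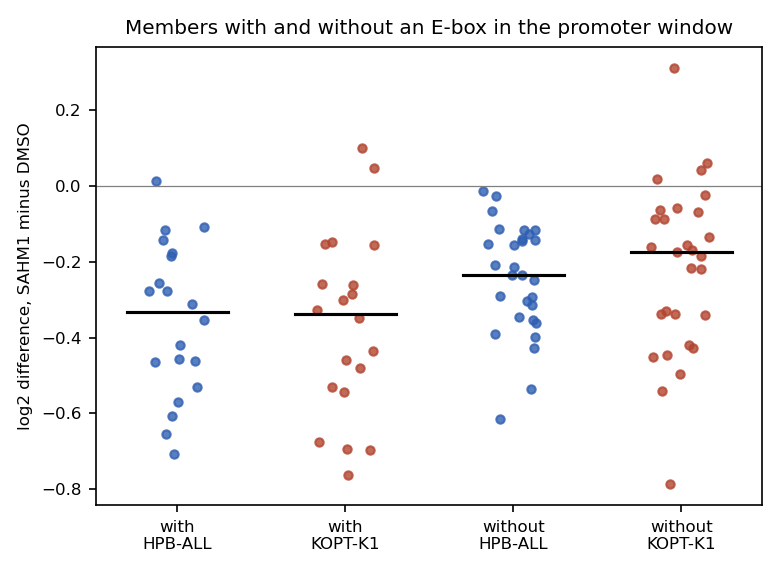
Log2 difference (SAHM1 minus DMSO) of members with the E-box CACGTG in the promoter window (20) and without it (29), in HPB-ALL and KOPT-K1. Each point is a member and each line a median: -0.33 with and -0.24 without in HPB-ALL, -0.34 with and -0.17 without in KOPT-K1.

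Of the 12 genes of RNA polymerases I and III 5 fell in HPB-ALL, and 8 fell and 1 rose in KOPT-K1. The 4 that fell in both were POLR3D, TCOF1, POLR1C and POLR3G. POLR3D, a subunit of RNA polymerase III, stood at 0.707, 0.77 and 0.706 of the DMSO mean in HPB-ALL with SAHM1, against 0.939, 0.97 and 1.09 with DMSO. In KOPT-K1 POLR3D stood at 0.873, 0.78 and 0.748 with SAHM1, against 0.981, 0.995 and 1.02 with DMSO. The groups do not overlap in either line, and the log2 differences were -0.46 ± 0.08 (adjusted p = 0.00294) and -0.32 ± 0.08 (adjusted p = 0.0115) in limma.

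TCOF1, or treacle, holds RNA polymerase I factors at the ribosomal genes and is mutated in Treacher Collins syndrome. Its ratios were 0.818, 0.791 and 0.752 in HPB-ALL with SAHM1, against 0.895, 1.07 and 1.03 with DMSO. In KOPT-K1 they were 0.731, 0.71 and 0.794 with SAHM1, against 1.03, 0.989 and 0.98 with DMSO. TCOF1 was below every DMSO array in both lines, by -0.34 ± 0.07 in HPB-ALL (adjusted p = 0.0139) and -0.42 ± 0.07 in KOPT-K1 (adjusted p = 0.00235). The HPB-ALL call was lost without DMSO replicate 2, without DMSO replicate 3 or without SAHM1 replicate 3 of that line, with an adjusted p of up to 0.0651. Of 3 TCOF1 probe sets 1 was called in each line, and not the same one. The set called in HPB-ALL was at -0.62 there and -0.30 in KOPT-K1. The set called in KOPT-K1 was at -0.75 there and -0.25 in HPB-ALL.

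POLR1C is a subunit that RNA polymerases I and III share. It stood at 0.711, 0.805 and 0.819 in HPB-ALL with SAHM1, against 1.02, 0.998 and 0.982 with DMSO. In KOPT-K1 POLR1C stood at 0.794, 0.74 and 0.834 with SAHM1, against 1.08, 0.952 and 0.962 with DMSO. Its falls were alike in size, 0.36 ± 0.08 in HPB-ALL and 0.34 ± 0.08 in KOPT-K1. POLR3G, a subunit of RNA polymerase III that is replaced by POLR3GL in many cells, fell by 0.32 ± 0.06 in HPB-ALL (adjusted p = 0.00823) and by 0.21 ± 0.06 in KOPT-K1 (adjusted p = 0.0385). Of 3 POLR3G probe sets 1 was called in HPB-ALL, at -0.60, and the others were at -0.25 and -0.09. In KOPT-K1 2 of them fell, at -0.41 and -0.36, and the other was at 0.15. The KOPT-K1 call of POLR3G held in 6 of 12 fits that each left out 1 array, and was lost without any of the 3 KOPT-K1 DMSO arrays, KOPT-K1 SAHM1 replicate 1 or 2, or HPB-ALL SAHM1 replicate 3 (adjusted p up to 0.117).

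Other polymerase genes were called in 1 line. POLR1A, the largest subunit of RNA polymerase I, fell by 0.40 ± 0.07 in HPB-ALL (adjusted p = 0.00297) and differed by -0.09 ± 0.07 in KOPT-K1. TAF1D, part of the factor that selects the ribosomal promoter, differed by -0.14 ± 0.09 in HPB-ALL and fell by 0.54 ± 0.09 in KOPT-K1 (adjusted p = 0.00206). RRN3, which couples RNA polymerase I to that factor, was at -0.01 ± 0.09 in HPB-ALL and fell by 0.43 ± 0.09 in KOPT-K1. The subunits POLR1E and POLR3E also fell in KOPT-K1, and the POLR1E call was lost without KOPT-K1 DMSO replicate 1 (adjusted p = 0.0602), the POLR3E call without KOPT-K1 DMSO replicate 1 or 2 or SAHM1 replicate 2 (adjusted p up to 0.0853). UBTF, which shapes active ribosomal genes, was not called in either line. Of its 5 probe sets 1 was called lower in each line, and not the same one. The UBTF set called in HPB-ALL was at -0.51 there and -0.10 in KOPT-K1. The UBTF set called in KOPT-K1 was at -0.42 there and -0.38 in HPB-ALL. For POLR1B the probe sets disagreed in KOPT-K1, where 2 of 4 fell and 1, an _x_at set, rose, between -0.73 and 0.65. In HPB-ALL 1 of the 4 was called lower, at -0.34, and the _x_at set was at 0.31.

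The small subunit had the highest share of members called in HPB-ALL. There 12 of 16 fell, and in KOPT-K1 10 of 16 fell; 7 fell in both, and DDX10 was the member called in neither. BYSL, or bystin, is needed for late maturation of the small subunit. It stood at 0.667, 0.641 and 0.713 in HPB-ALL with SAHM1, against 0.969, 0.997 and 1.03 with DMSO. In KOPT-K1 BYSL stood at 0.692, 0.716 and 0.741 with SAHM1, against 1.06, 0.979 and 0.963 with DMSO. The groups are far apart in both lines, with falls of 0.57 ± 0.06 in HPB-ALL (adjusted p = 0.000265) and 0.48 ± 0.06 in KOPT-K1 (adjusted p = 0.000406).

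UTP15, WDR75, UTP4, WDR43 and HEATR1 encode subunits of the complex that binds the precursor first. UTP15 stood at 0.755, 0.88 and 0.823 in HPB-ALL with SAHM1, against 1.03, 0.979 and 0.993 with DMSO. In KOPT-K1 UTP15 stood at 0.699, 0.79 and 0.71 with SAHM1, against 1.01, 1 and 0.975 with DMSO. WDR75 stood at 0.772, 0.821 and 0.823 in HPB-ALL with SAHM1, against 1.03, 0.996 and 0.973 with DMSO. Both genes were below every DMSO array of HPB-ALL. In KOPT-K1 WDR75 stood at 0.678, 0.741 and 0.831 with SAHM1, against 0.952, 1.04 and 1.01 with DMSO, again with no overlap.

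All 5 genes of this complex were called in KOPT-K1, and UTP15, WDR75 and UTP4 in HPB-ALL as well. UTP15 fell by 0.29 ± 0.07 in HPB-ALL (adjusted p = 0.0214) and by 0.45 ± 0.07 in KOPT-K1 (adjusted p = 0.00114). Its 2 probe sets were called in different lines. One was at -0.41 in HPB-ALL (called) and -0.15 in KOPT-K1, the other at -0.17 in HPB-ALL and -0.75 in KOPT-K1 (called). WDR75 fell by 0.31 ± 0.07 (adjusted p = 0.021) and by 0.42 ± 0.07 (adjusted p = 0.00248). WDR43 differed by -0.14 ± 0.09 in HPB-ALL and fell by 0.68 ± 0.09 in KOPT-K1, and this difference between the lines passed its own test, described further on. HEATR1 differed by -0.16 ± 0.07 in HPB-ALL and fell by 0.45 ± 0.07 in KOPT-K1. Of 5 HEATR1 probe sets 2 were called lower in HPB-ALL, at -0.44 and -0.38, and the others ran from -0.26 to 0.18. In KOPT-K1 4 of the 5 were called lower, and the other was at 0.14. UTP4 fell by 0.26 ± 0.06 in HPB-ALL and by 0.30 ± 0.06 in KOPT-K1. For UTP15, WDR75, UTP4 and HEATR1 a difference between the lines was not called. In HPB-ALL the WDR75 call was lost without any 1 of the 6 HPB-ALL arrays (adjusted p up to 0.0807). The UTP15 call there was lost without any of them but SAHM1 replicate 2 (adjusted p up to 0.0898), and the UTP4 call without any of them but DMSO replicate 1 (adjusted p up to 0.0869).

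Other small-subunit members fell in both lines: NOP14 of the early processome, RRP9 of the U3 particle and TSR1 of late maturation. NOB1, the nuclease that makes the final cut of 18S RNA, fell by 0.54 ± 0.08 in HPB-ALL (adjusted p = 0.00168) and differed by -0.22 ± 0.08 in KOPT-K1 (adjusted p = 0.0825). IMP4, NOL6, PNO1 and RRP12 were also called in HPB-ALL alone, at -0.35, -0.42, -0.46 and -0.32. For PNO1 1 of 3 probe sets was called there, at -0.85, and the others were at -0.27 and -0.26. UTP20 was called in KOPT-K1 alone, at -0.70 ± 0.13. Several of these calls in HPB-ALL ended when 1 array of that line was left out. NOP14 was lost without any but DMSO replicate 1 (adjusted p up to 0.119), TSR1 without DMSO replicate 1 or 3 or SAHM1 replicate 2 or 3 (up to 0.151), RRP12 without DMSO replicate 2 or 3 or SAHM1 replicate 1 or 2 (up to 0.0757), and NOL6 without DMSO replicate 3 (0.0566). RRP9 was lost in HPB-ALL without DMSO replicate 3 or SAHM1 replicate 1 or 2 (up to 0.06), and in KOPT-K1 without any array of that line but DMSO replicate 3 (up to 0.132).

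Among the 17 large-subunit members 11 fell in HPB-ALL and 8 in KOPT-K1, and 5 fell in both. NLE1 is the human counterpart of notchless, a gene first described in the fruit fly as a modifier of Notch signalling, and its protein helps to release the PES1 complex from the maturing large subunit. It stood at 0.689, 0.66 and 0.728 in HPB-ALL with SAHM1, against 0.967, 0.989 and 1.04 with DMSO. In KOPT-K1 NLE1 stood at 0.601, 0.565 and 0.596 with SAHM1, against 0.96, 0.959 and 1.08 with DMSO. The groups were well apart in both lines, and the falls were 0.53 ± 0.07 in HPB-ALL (adjusted p = 0.000577) and 0.76 ± 0.07 in KOPT-K1 (adjusted p = 1.62e-05).

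URB2 acts in the earliest large-subunit particles. It stood at 0.806, 0.81 and 0.757 in HPB-ALL with SAHM1, against 0.989, 0.993 and 1.02 with DMSO. In KOPT-K1 URB2 stood at 0.598, 0.567 and 0.641 with SAHM1, against 1.05, 0.953 and 0.997 with DMSO. All SAHM1 arrays lay below the DMSO arrays, by 0.34 ± 0.06 in HPB-ALL and 0.73 ± 0.06 in KOPT-K1.

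MRTO4 holds the place of a stalk protein until the large subunit leaves the nucleus. It stood at 0.66, 0.676 and 0.571 in HPB-ALL with SAHM1, against 1.01, 1.02 and 0.968 with DMSO. In KOPT-K1 MRTO4 stood at 0.775, 0.66 and 0.789 with SAHM1, against 1.01, 1 and 0.993 with DMSO. Both of its probe sets fell in each line, and the gene fell by 0.66 ± 0.08 in HPB-ALL and 0.44 ± 0.08 in KOPT-K1.

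Some large-subunit genes were called in 1 line only, which by itself is no difference between the lines. RRS1, which helps to load the 5S particle, fell by 0.53 ± 0.07 in HPB-ALL (adjusted p = 0.000613) and differed by -0.17 ± 0.07 in KOPT-K1. GNL2, a GTPase of nuclear large-subunit particles, was at 0.01 ± 0.08 in HPB-ALL and fell by 0.54 ± 0.08 in KOPT-K1 (adjusted p = 0.000743). NOC3L differed by -0.18 ± 0.08 in HPB-ALL and fell by 0.53 ± 0.08 in KOPT-K1 (adjusted p = 0.00112). BRIX1, FTSJ3, NOP16, NOP2 and RRP1B were called in HPB-ALL alone, and DDX56 in KOPT-K1 alone. For RRP1B 1 of 2 probe sets was called in HPB-ALL, at -0.49, and the other was at -0.21. In HPB-ALL the BRIX1 call was lost without any array of that line but SAHM1 replicate 2 (adjusted p up to 0.114), and the NOP16 call without DMSO replicate 3 (adjusted p = 0.0512). PES1 and NOC2L fell in both lines, PES1 with adjusted p = 0.0487 in HPB-ALL and 0.0381 in KOPT-K1. These 2 were fragile: the PES1 call held in 2 of 12 fits without 1 array in HPB-ALL and in 6 of 12 in KOPT-K1, and that of NOC2L in 9 of 12 in each line. The highest adjusted p was 0.195 in HPB-ALL and 0.127 in KOPT-K1 for PES1, and 0.0917 and 0.0892 for NOC2L. Of 2 PES1 probe sets 1 fell in both lines, at -0.63 in HPB-ALL and -0.50 in KOPT-K1. The other PES1 probe set was at 0.08 and -0.02. WDR12, a partner of PES1, was at -0.03 ± 0.07 in HPB-ALL and -0.17 ± 0.07 in KOPT-K1.

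**Figure D3:**
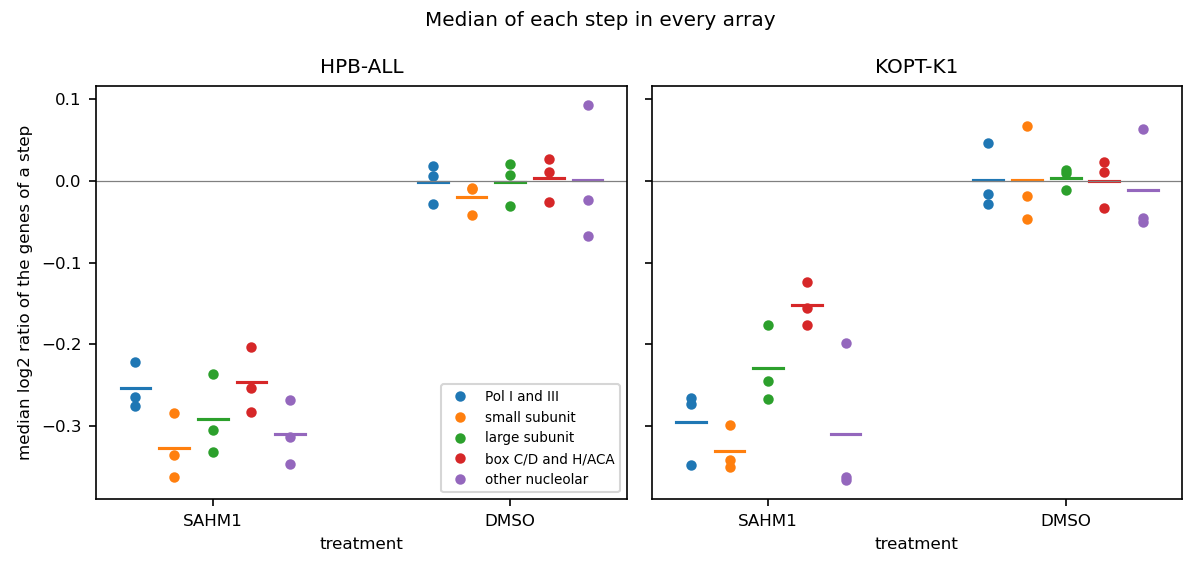
Median log2 ratio of the members of each step in every array (points) and the mean of the 3 arrays (lines), for SAHM1 and DMSO in HPB-ALL (left) and KOPT-K1 (right). In all 5 steps the 3 SAHM1 arrays lie below the 3 DMSO arrays in both lines.

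Of the 6 genes of the box C/D and H/ACA particles 4 fell in HPB-ALL and 2 in KOPT-K1. NOLC1, a chaperone that gathers both kinds of particle in the nucleolus, was the one called in both lines. It stood at 0.717, 0.714 and 0.714 in HPB-ALL with SAHM1, against 1.01, 0.991 and 0.992 with DMSO. In KOPT-K1 NOLC1 stood at 0.832, 0.813 and 0.849 with SAHM1, against 1.09, 0.971 and 0.936 with DMSO. Its falls were 0.48 ± 0.06 in HPB-ALL (adjusted p = 0.000706) and 0.26 ± 0.06 in KOPT-K1 (adjusted p = 0.0122).

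GAR1, NHP2 and NOP10 are 3 of the core proteins of the H/ACA particle, which turns uridine into pseudouridine. GAR1 stood at 0.837, 0.898 and 0.853 in HPB-ALL with SAHM1, against 1, 0.999 and 0.997 with DMSO. In KOPT-K1 GAR1 stood at 0.883, 0.89 and 0.922 with SAHM1, against 1.02, 0.982 and 1 with DMSO. The arrays separate in both lines, with a fall of 0.21 ± 0.05 in HPB-ALL (adjusted p = 0.0256) and -0.15 ± 0.05 in KOPT-K1, which did not pass (adjusted p = 0.0622). The HPB-ALL call of GAR1 was lost without any HPB-ALL array but SAHM1 replicate 2 (adjusted p up to 0.0963).

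NHP2 stood at 0.775, 0.784 and 0.788 in HPB-ALL with SAHM1, against 1.01, 0.973 and 1.02 with DMSO. In KOPT-K1 NHP2 stood at 1.07, 0.996 and 1.02 with SAHM1, against 0.956, 1.03 and 1.01 with DMSO. The KOPT-K1 groups overlap (0.04 ± 0.06), whereas HPB-ALL fell by 0.35 ± 0.06 (adjusted p = 0.00221). NOP10 had the same layout, with a fall of 0.28 ± 0.06 in HPB-ALL (adjusted p = 0.0142) and 0.05 ± 0.06 in KOPT-K1. Its HPB-ALL call was lost without DMSO replicate 2 or 3 or SAHM1 replicate 1 or 2 of that line (adjusted p up to 0.0731). In the C/D particle NOP58 was at 0.00 ± 0.06 in HPB-ALL and fell by 0.21 ± 0.06 in KOPT-K1 (adjusted p = 0.0226), a call lost without KOPT-K1 DMSO replicate 1 or 2 or SAHM1 replicate 3 (adjusted p up to 0.0771). FBL, the C/D methyltransferase, was at -0.11 ± 0.05 and -0.15 ± 0.05.

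PUS7, DDX21, MYBBP1A and PPRC1 fell in both lines, and PUS7 had the largest fall of all members in HPB-ALL. PUS7 stood at 0.602, 0.629 and 0.604 in HPB-ALL with SAHM1, against 0.969, 0.971 and 1.06 with DMSO. In KOPT-K1 PUS7 stood at 0.637, 0.595 and 0.607 with SAHM1, against 1.16, 0.922 and 0.918 with DMSO. The lines gave nearly the same fall, 0.71 ± 0.09 (adjusted p = 0.000461) in HPB-ALL and 0.70 ± 0.09 (adjusted p = 0.000234) in KOPT-K1.

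DDX21, a helicase that works at the ribosomal genes and on their RNA, stood at 0.773, 0.791 and 0.798 in HPB-ALL with SAHM1, against 0.987, 0.987 and 1.03 with DMSO. In KOPT-K1 DDX21 stood at 0.723, 0.716 and 0.688 with SAHM1, against 1.02, 0.997 and 0.985 with DMSO. Its arrays were tightly grouped, and it fell by 0.34 ± 0.05 in HPB-ALL (adjusted p = 0.00174) and 0.50 ± 0.05 in KOPT-K1 (adjusted p = 8.65e-05). Of 2 DDX21 probe sets 1 fell in both lines, at -0.47 in HPB-ALL and -0.37 in KOPT-K1. The other was at -0.22 in HPB-ALL, not called, and at -0.62 in KOPT-K1, called. The difference between the lines of that other set was called, at 0.40.

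MYBBP1A, a nucleolar protein that takes part in processing of ribosomal RNA, stood at 0.668, 0.613 and 0.685 in HPB-ALL with SAHM1, against 0.989, 0.938 and 1.07 with DMSO. In KOPT-K1 MYBBP1A stood at 0.76, 0.792 and 0.796 with SAHM1, against 1.09, 0.896 and 1.01 with DMSO. It fell by 0.61 ± 0.08 in HPB-ALL and 0.35 ± 0.08 in KOPT-K1. PPRC1 fell by 0.61 ± 0.12 in HPB-ALL (adjusted p = 0.0072) and by 0.79 ± 0.12 in KOPT-K1 (adjusted p = 0.001). NPM1, or nucleophosmin, fell by 0.21 ± 0.05 in HPB-ALL (adjusted p = 0.0267) and was at -0.09 ± 0.05 in KOPT-K1. That NPM1 call was lost without any HPB-ALL array but DMSO replicate 1 (adjusted p up to 0.101).

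Other genes of the same steps, 101 measured of 110 listed, gave a lower share of falls in HPB-ALL than the members did. In HPB-ALL 24 of them fell (23.8%) and 2 rose, with a median of -0.10. In KOPT-K1 44 fell (43.6%) and 1 rose, with a median of -0.19. In both lines 12 of them fell. The members and this list were both compiled with results of these arrays known, so the contrast between them is a description. CACGTG was found in 24 of 94 promoter windows of this list (25.5%).

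**Figure D4:**
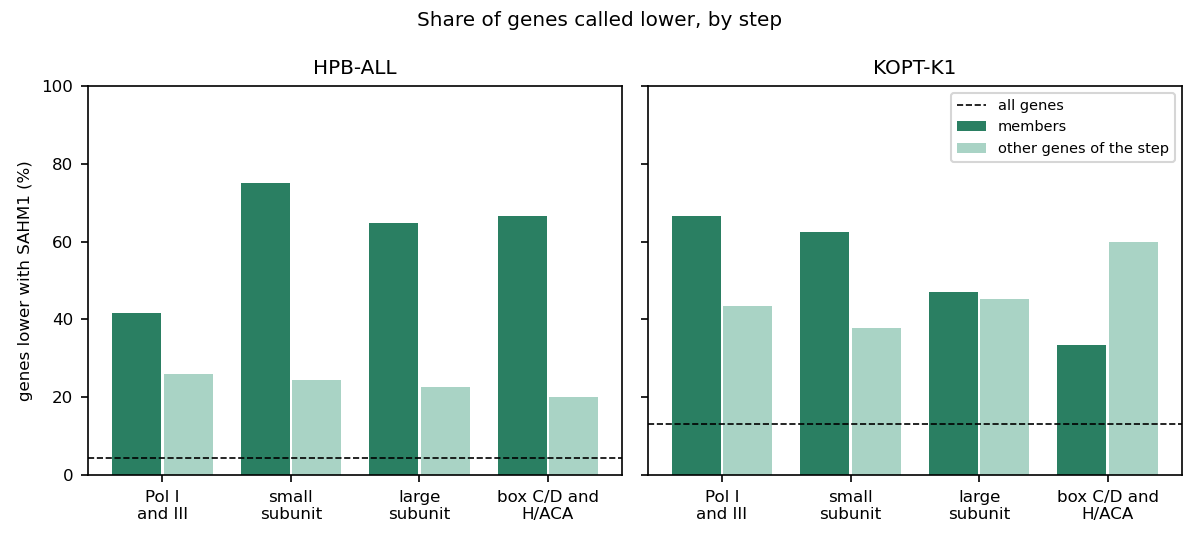
Share of genes that fell with SAHM1 (adjusted p under 0.05) among members (dark bars) and other genes of the same step (light bars), in HPB-ALL (left) and KOPT-K1 (right), with a dashed line for all genes (4.38% and 13.2%). Member bars stand above the dashed line in every step, and in KOPT-K1 the other box C/D and H/ACA genes have a taller bar than the members.

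The genes of that wider list named next had the smallest p of their step for the mean of both lines, so they are not typical of it: 75 of the 101 were not called in HPB-ALL. NAT10, which acetylates 18S RNA, fell by 0.69 ± 0.07 in HPB-ALL and by 0.29 ± 0.07 in KOPT-K1. PDCD11, a large scaffold of the small subunit, fell by 0.51 ± 0.09 in HPB-ALL and 0.57 ± 0.09 in KOPT-K1, and TSR2 by 0.23 ± 0.06 and 0.34 ± 0.06. WDR18 and RSL1D1 of the large subunit fell in both lines. MAK16 was at -0.14 ± 0.08 in HPB-ALL and fell by 0.62 ± 0.08 in KOPT-K1. SHQ1 and RUVBL1, assembly factors of the H/ACA and C/D particles, fell in both lines, by 0.46 ± 0.06 and 0.41 ± 0.07 in HPB-ALL and by 0.19 ± 0.06 and 0.24 ± 0.07 in KOPT-K1. NUFIP1, another C/D assembly factor, was at -0.07 ± 0.06 in HPB-ALL and fell by 0.50 ± 0.06 in KOPT-K1. GTF3C1 and GTF3C6 of the factor that recruits RNA polymerase III fell in both lines. POLR3C, a subunit of that polymerase, was at 0.11 ± 0.07 in HPB-ALL and fell by 0.85 ± 0.07 in KOPT-K1, a difference between the lines of 0.96 ± 0.09 (adjusted p = 5.52e-05).

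The lines were also compared directly, by subtracting the KOPT-K1 difference from the HPB-ALL difference. This difference was called for 13 of 59 members, 9 lower and 4 higher, while 16.8% of all genes were called (5.41% lower, 11.4% higher). The share of members, 13 of 59, is near that background. After quantile normalization limma called 0 members, beside 1.07% of all genes, with 16 members at an unadjusted p under 0.05. With 18S as a covariate it also called 0, beside 1.64% of all genes, with 7 at an unadjusted p under 0.05. The count was 8 without KOPT-K1 DMSO replicate 2, beside 12.9% of all genes, and also 8 without HPB-ALL SAHM1 replicate 2, beside 11.8%. POLR3K, a small subunit of RNA polymerase III, stood at 0.853, 0.848 and 0.845 in HPB-ALL with SAHM1, against 0.965, 1.05 and 0.985 with DMSO. In KOPT-K1 POLR3K stood at 1.19, 1.38 and 1.16 with SAHM1, against 0.966, 1.05 and 0.979 with DMSO. The SAHM1 arrays lay on opposite sides of the DMSO arrays in the 2 lines, and the difference between lines was -0.55 ± 0.10 (adjusted p = 0.00383). The KOPT-K1 rise came from 1 of its 2 probe sets, at 0.56, and the other was at 0.06.

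PNO1, the partner of NOB1 on the maturing small subunit, differed between the lines by -0.56 ± 0.11 (adjusted p = 0.00415). That difference came from 1 of its 3 probe sets, an _x_at set at -1.70, and the others were at 0.06 and -0.05. The PNO1 probe sets disagreed in KOPT-K1, where 1 fell (-0.33) and 1 rose (0.85), and the gene's value there was 0.10 ± 0.08. GNL2 and WDR43 differed in the other direction, by 0.56 ± 0.11 (adjusted p = 0.00537) and 0.53 ± 0.13 (adjusted p = 0.0128). NHP2 differed by -0.40 ± 0.08 (adjusted p = 0.00548). URB2 fell in both lines, and the KOPT-K1 fall was larger by 0.39 ± 0.09 (adjusted p = 0.0113). RRP12 and RRP1B had values above 0 in KOPT-K1 that did not pass the test, both 0.06 ± 0.07. Across the 59 members the differences of the lines correlated with r = 0.20, beside -0.14 across all 19775 genes; the points share arrays and each line's DMSO mean, and this is a description.

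**Figure D5:**
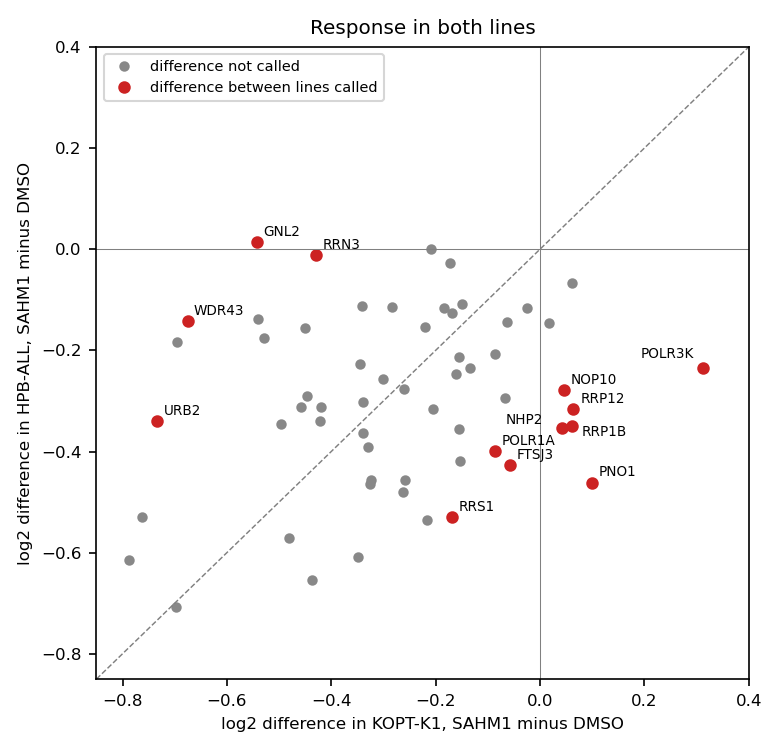
Log2 difference (SAHM1 minus DMSO) in HPB-ALL against that in KOPT-K1 for the 59 members, with the line of equality dashed. The 13 members whose difference between lines was called are red and named, with GNL2, RRN3, WDR43 and URB2 above the dashed line and the other 9 below it.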

How the data were processed

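Total RNA was profiled on 12 Affymetrix U133 Plus 2.0 arrays. The submitters' processing notes name RMA, with no version. What was deposited are ratios in which the DMSO arrays of a line average 1, as the values show: that average was 1 in all 54675 probe sets of each line. The ratios ran from 0.0827 to 6.98. No low-value filter was possible on this scale, and the number of arrays limits the precision.

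Ratios were taken to log2 with no pseudocount. Probe sets with 1 symbol (41097; 1801 had several, 11777 none) were averaged per gene, which gave 19775 genes. The 59 members rested on 120 probe sets. limma 3.58.1 in R 4.3.3 (lmFit, eBayes, two-sided) was fitted to all 12 arrays with 4 groups, with contrasts within each line, for their mean and for HPB-ALL minus KOPT-K1. A gene was called where its p, adjusted over all genes by Benjamini-Hochberg, was under 0.05. The steps were tested on simulated data. Replicates are cultures of 1 experiment, so p-values measure the spread between these cultures. Replicate numbers did not pair the arrays: deviations of same-numbered arrays correlated between -0.05 and 0.07. No pair of arrays held identical values.

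In each step the 3 members with the smallest p for the mean of both lines are given by array. Up to 3 more per step, the 6 largest line differences by p, the 4 largest rises and members with opposed probe sets are given by log2 difference. UTP4, RRN3, NCL, POLR1E, UTP20 and others beyond these were named after their values were seen. The members and lists were chosen with earlier results of these data known. Alternatives were quantile normalization, median centring, probe set choices, control probe sets as covariates, a replicate block, single-line fits and leaving out each array.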

Additional observations from a re-analysis of the deposited data

Results flagged for a closer look

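The response to SAHM1 differed between the lines, by limma's test of the difference itself, for 13 of 59 members, near the 16.8% of all genes called. The count was 0 after quantile normalization, with 16 members at an unadjusted p under 0.05, and 0 when 18S was added to the fit, where 7 were. Values are log2 differences (SAHM1 minus DMSO) of HPB-ALL less those of KOPT-K1. Lower values came from POLR3K (-0.55), PNO1 (-0.56), RRP1B (-0.41), NHP2 (-0.40), RRP12 (-0.38), FTSJ3 (-0.37), RRS1 (-0.36), NOP10 (-0.32) and POLR1A (-0.31). Higher values came from GNL2 (0.56), WDR43 (0.53), RRN3 (0.42) and URB2 (0.39). Of these 13 calls 7 held in all 12 fits that left out 1 array. The call held in 4 of these fits for POLR1A and for RRN3 (adjusted p up to 0.0995 and 0.0912), in 5 for RRP12 (up to 0.0636), in 8 for NOP10 (up to 0.064), in 9 for FTSJ3 (up to 0.0615) and in 10 for RRS1 (up to 0.0548). HPB-ALL SAHM1 replicate 2 was among the arrays whose absence ended it for POLR1A, RRN3, RRP12, NOP10 and FTSJ3; for RRS1 they were HPB-ALL DMSO replicate 3 and SAHM1 replicate 3. In KOPT-K1 the probe sets of PNO1 were called in opposite directions, and 1 of 2 probe sets of POLR3K was called. For PNO1 the difference between lines came from 1 of 3 probe sets, at -1.70, with the others at 0.06 and -0.05. For RRP1B that difference was called in 1 of 2 probe sets, at -0.71, and the other was at -0.11. For RRP12 it was called in 2 of 5, at -0.92 and -0.53, and the others ran from -0.20 to -0.12.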

How the results depend on the processing

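Member counts are changed of 59 in HPB-ALL, in KOPT-K1, in the mean of both lines and in the difference between lines, 37, 33, 45 and 13 as reported. Quantile normalization, under which all arrays share 1 distribution, left 16, 3, 14 and 0, beside 2.11%, 0.688%, 1.49% and 1.07% of all genes; the median member difference in KOPT-K1 became -0.16, and there were 16 members at an unadjusted p under 0.05 in limma for the difference. With the 18S level as a covariate they were 0, 34, 29 and 0, beside 0.263%, 17.7%, 3.8% and 1.64% of all genes (30 members at an unadjusted p under 0.05 in HPB-ALL and 7 for the difference). With 18S and spike levels they were 0, 9, 17 and 0, beside 0.197%, 3.02%, 2.01% and 0.344% of all genes (29 at an unadjusted p under 0.05 in HPB-ALL and 6 for the difference). Without _x_at and _s_at probe sets, which leaves 50 members, 21 changed in HPB-ALL, beside 5.96% of all genes. Apart from the fits that left out 1 array, given below, the other alternatives stayed within 1.5 times the reported count. With replicate number as a block the counts were 34, 32, 43 and 12, beside 7.68%, 17.4%, 9.95% and 15.2% of all genes. The block is no pairing here. Leaving out 1 array gave 21 to 37, 26 to 34, 39 to 44 and 8 to 15. The lowest were HPB-ALL without HPB-ALL DMSO replicate 3 (21), and the difference without KOPT-K1 DMSO replicate 2 or HPB-ALL SAHM1 replicate 2 (8 each). Beside these stood 5.04%, 12.9% and 11.8% of all genes. In the 12 such fits, 21 of 37 calls in HPB-ALL and 26 of 33 in KOPT-K1 held every time. No member count reversed. The cause of the losses was not tested.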

Other observations

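Among genes of the wider list, chosen after their values were seen, POLR3GL rose in HPB-ALL by 0.32 ± 0.06 (adjusted p = 0.00689), where its paralogue POLR3G fell by 0.32 ± 0.06; in KOPT-K1 POLR3GL was at 0.05 ± 0.06. The POLR3G fall in HPB-ALL was called in 1 of its 3 probe sets. BDP1, of the factor that positions RNA polymerase III, rose in HPB-ALL by 0.57 ± 0.16 and was at -0.23 ± 0.16 in KOPT-K1. PIH1D1, an assembly factor of C/D particles, was at 0.10 ± 0.06 in HPB-ALL and rose by 0.33 ± 0.06 in KOPT-K1 (adjusted p = 0.00441).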
